A study of Mus musculus with 52 samples.

Results

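Lymphoid tissue chemokines and their receptors were followed in subcutaneous pancreatic tumors of mice given a STING agonist, an agonistic antibody to the lymphotoxin beta receptor (LTβR), both agents or neither. The set was chosen by gene symbol and holds 7 of the 27525 genes with a row in the normalized table. It contains the chemokines Cxcl13, Ccl19, Ccl21a and Cxcl12 and the receptors Cxcr5, Ccr7 and Cxcr4. The tumors grew from KxPxCx (KPC) cells, a single pancreatic tumor line derived from mice with Pdx1-Cre and Trp53 LSL.R172H/+ among their alleles, in syngeneic C57BL/6NHsd males used at 8 to 10 weeks of age. All groups therefore shared the same tumor cells and an intact immune system, and each library was made from 1 tumor. Untreated tumors (labelled Control) were compared with tumors given ADU-S100, a cyclic dinucleotide STING agonist, once by intratumoral injection at 2 µg. They were also compared with tumors of mice given anti-LTβR, the agonistic antibody 4H8, intraperitoneally at 100 µg in 4 doses until day 10, and with tumors given the combination of both regimens. Polyadenylated RNA was sequenced from 8 tumors per group, all resected on day 14.

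These genes organize lymphoid tissue. CCL19 and CCL21 guide T cells and mature dendritic cells that carry CCR7 into T cell zones, CXCL13 draws B cells that carry CXCR5 into follicles, and CXCL12 retains cells that carry CXCR4. In lymph nodes, stromal fibroblasts and follicular dendritic cells make CXCL13 and CCL19, lymphatic endothelium and T zone stroma make CCL21, and signaling through LTβR and noncanonical NF-κB is known to maintain several of them. Tertiary lymphoid structures in tumors are lymph node-like aggregates in which the same genes are active.

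Mouse Ccl21 exists as near-identical gene copies, and the bases by which they differ decide which reads can be assigned to Ccl21a. In GENCODE vM21 on GRCm38, Ccl21a lies at chr4:42772860-42773993 on the minus strand. The other copies with a row in the table, Ccl21b, Ccl21d, Gm13304 and Gm10591, lie at lower coordinates of the same chromosome on the plus strand. All 5 copies had 402 coding bases. The 4 other copies were identical to each other over the coding sequence and differed from Ccl21a at 2 bases, T84A and C194T, counted from 1 at the A of the start codon with the Ccl21a base first, which left 99.5% identity. Both differences are shown here within 55 coding bases, spliced across an exon junction, with the differing base in capitals, because a read outside these stretches cannot tell coding sequence of Ccl21a from that of the other copies. The first pair covers coding bases 57 to 111 and the second pair coding bases 167 to 221.
Ccl21a (chr4:42773720-42773862, minus strand): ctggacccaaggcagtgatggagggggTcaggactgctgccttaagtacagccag
Ccl21b (chr4:42255823-42255965, plus strand): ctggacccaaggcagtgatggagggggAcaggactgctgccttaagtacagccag
Ccl21a (chr4:42773516-42773664, minus strand): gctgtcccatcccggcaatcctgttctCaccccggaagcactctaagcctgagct
Ccl21b (chr4:42256021-42256169, plus strand): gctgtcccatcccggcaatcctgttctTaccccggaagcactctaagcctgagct

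The promoters of the members were read next, to show what sequence lies before a chemokine that rose and one that did not. RefSeq (GRCm38.p6) held a promoter entry for 5 of the 7 genes, Ccr7 and Cxcr5 not among them, and the 250 bases before the start of transcription were searched on both strands for a pair of core promoter sequences. TATAAA, the TATA box, occurred in Cxcl13, at 46 bases before the start, and in Cxcr4, and in 12.4% of 32851 promoters of the same length. GGGCGG, the GC box, occurred in Cxcl12 and Cxcr4 and in 32.7% of promoters. Each match describes these letters, and no binding was measured. The upstream sequences of Cxcl13, Cxcl12 and Ccl21a are shown with matches to TATAAA (Cxcl13) and to GGGCGG or its reverse complement (Cxcl12) in capitals. The window of Ccl21a held neither.
Cxcl13 (chr5:95956689-95956938, plus strand): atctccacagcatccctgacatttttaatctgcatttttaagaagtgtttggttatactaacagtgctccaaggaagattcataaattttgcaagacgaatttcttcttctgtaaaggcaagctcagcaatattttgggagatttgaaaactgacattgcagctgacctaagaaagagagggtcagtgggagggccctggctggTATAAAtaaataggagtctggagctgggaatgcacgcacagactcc
Cxcl12 (chr6:117168285-117168534, plus strand): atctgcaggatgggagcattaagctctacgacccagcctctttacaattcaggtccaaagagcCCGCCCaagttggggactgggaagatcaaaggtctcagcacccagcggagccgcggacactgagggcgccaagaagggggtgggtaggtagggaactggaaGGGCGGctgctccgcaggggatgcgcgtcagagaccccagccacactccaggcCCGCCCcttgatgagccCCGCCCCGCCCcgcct
Ccl21a (chr4:42773992-42774241, minus strand): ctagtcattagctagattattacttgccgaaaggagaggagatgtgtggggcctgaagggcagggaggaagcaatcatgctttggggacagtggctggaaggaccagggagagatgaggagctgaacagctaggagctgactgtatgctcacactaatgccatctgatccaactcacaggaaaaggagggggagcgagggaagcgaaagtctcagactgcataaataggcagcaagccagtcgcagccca

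Levels are normalized read counts, the authors' estimated reads divided by 1 factor per library, from libraries of 12762453 to 15591986 reads. A gene passed the test when its limma adjusted p on log2(normalized count + 1), adjusted by the Benjamini-Hochberg method over all genes tested, was below 0.05, and rose or fell is used only of such genes. Folds are on that log2 scale, which understates changes of low genes. In bulk tumors, fewer cells of a type and less RNA per cell cannot be told apart, which applies to every level given here. Summed markers of skeletal muscle varied widely in every group, from 5104 to 110870 in untreated tumors, and differences were therefore also fitted with these markers as a covariate.

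Per kilobase of exon, Ccl21a was the most abundant of the 7 genes in every group, with a mean level of 488 ± 229 (SD, n = 8) normalized counts per kilobase in untreated tumors and 1710 ± 399 in combination tumors. This order depends on the length used, all annotated exons of a gene joined, which was 8.18 kb for Cxcl12 and 0.87 kb for Ccl21a. Before division by length, mean Cxcl12 was above mean Ccl21a, at 1487 against 424.8 in untreated and 3119 against 1488 in combination tumors. Cxcr4 (198 ± 38.0) and Cxcl12 (182 ± 37.0) followed in untreated tumors with overlapping ranges. In combination tumors Cxcl12 (381 ± 117) stood above Cxcr4 (347 ± 55.0), also within their spread. Ccr7 came next at 43.0 ± 11.7 in untreated and 53.5 ± 11.1 in combination tumors. Cxcl13 (mean 27.2, 10.8 to 48.4) and Ccl19 (mean 21.0, 7.11 to 37.5) overlapped in untreated tumors, and their order was the opposite in combination tumors, at 13.7 ± 8.92 for Cxcl13 and 27.7 ± 5.71 for Ccl19. Cxcr5 was the lowest in every group, at 2.46 ± 1.24 in untreated and 4.89 ± 2.26 in combination tumors.

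**Figure D1:**
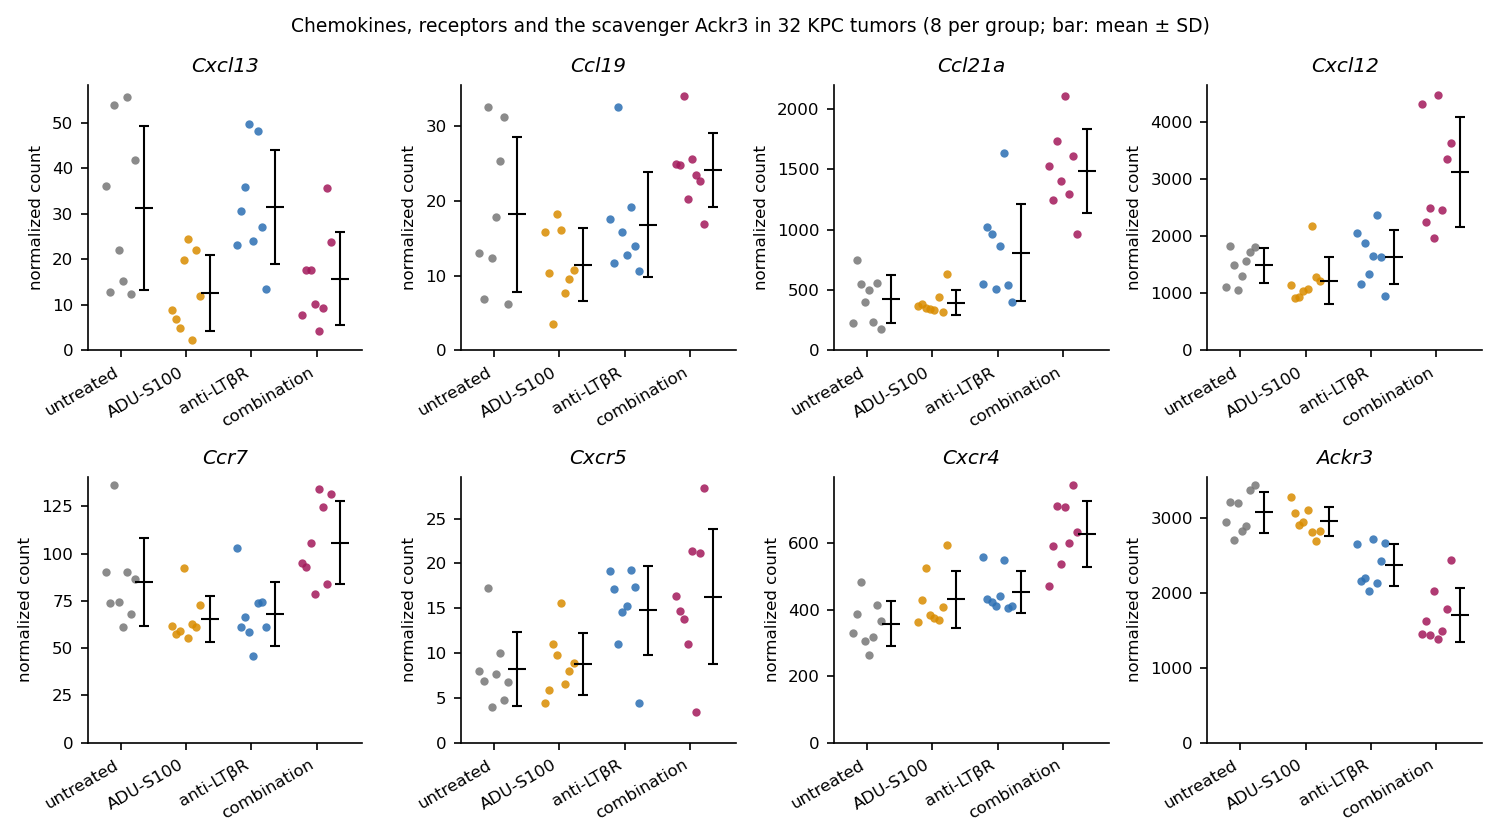
Normalized read counts (y axes, linear, from 0) of the 7 genes and of the scavenging receptor Ackr3 in each tumor of the 4 treatment groups; points are tumors and bars show the mean ± SD of 8 tumors. Ccl21a and Cxcl12 of all combination tumors sit above all untreated tumors, and Ackr3 of all combination tumors sits below them.

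The combination was set against no treatment to ask which of the lymphoid tissue genes changed when both pathways were activated. The CCR7 ligand Ccl21a, the CXCR4 ligand Cxcl12 and the receptor Cxcr4 rose, and no member fell. This was 3 of 7 members, where 19.6% of 16909 genes tested did so and 43.2% passed in either direction. Cxcl13, Ccl19, Ccr7 and Cxcr5 did not pass. With the study's further requirement of a 2-fold change, Ccl21a and Cxcl12 passed, where 5.16% of genes tested were at least 2-fold higher.

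Ccl21a ran from 173.6 to 746.3 (median 450.7) in untreated tumors and from 960.9 to 2107 (median 1468) in combination tumors. The groups did not overlap, as for 4.64% of genes tested. The log2 difference was 1.93 ± 0.27 (SE), a 3.81-fold higher level with a 95% interval of 1.37 to 2.49 on the log2 scale (limma adjusted p = 5.52e-05). Cxcl12, at chr6:117168535-117181367 on the plus strand, had a lowest level of 1060, a median of 1530 and a highest of 1824 in untreated tumors. In combination tumors it had 1975, 2925 and 4473, again with no overlap. Its log2 difference was 1.04 ± 0.18, or 2.05-fold (limma adjusted p = 0.000260). Cxcr4, at chr1:128588199-128592293 on the minus strand, ran from 264.5 to 481.7 (median 347.2) in untreated and from 470.4 to 773.5 (median 617.3) in combination tumors. Every untreated tumor was exceeded by 7 of the 8 combination tumors. The log2 difference of Cxcr4 was 0.82 ± 0.12, or 1.76-fold (limma adjusted p = 8.24e-05).

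Neither gene of the B cell axis passed. Cxcl13, at chr5:95956951-95961068 on the plus strand, ran from 12.4 to 55.7 (median 29.1) in untreated and from 4.27 to 35.6 (median 13.9) in combination tumors. The rest of the combination tumors overlapped and 4 lay below every untreated tumor, with a log2 difference of -0.96 ± 0.42 (limma adjusted p = 0.0727). Cxcr5, at chr9:44511787-44561877 on the minus strand, ran from 4.02 to 17.3 (median 7.27) and from 3.46 to 28.4 (median 15.5), so that the combination group held both the lowest and the highest tumor. Its log2 difference was 0.85 ± 0.35 and narrowly missed the threshold (limma adjusted p = 0.0578). That call depends on the model, since edgeR and DESeq2 on recovered reads gave 1.00 to 1.02 with adjusted p of 0.0227 to 0.0279. Cxcr5 overlaps Bcl9l on the opposite strand, a gene with a mean level of 2889 in untreated and 2482 in combination tumors (limma adjusted p = 0.0904). The libraries mark strand, but whether the reads were counted by strand is not stated in the sources used here.

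Ccl19 and Ccr7, the other genes of the CCR7 axis, did not pass. Ccl19, at chr4:42754525-42756577 on the minus strand, ran from 6.17 to 32.5 (median 15.4) in untreated and from 16.9 to 34.0 (median 24.1) in combination tumors. The groups overlapped, with a log2 difference of 0.57 ± 0.31 (limma adjusted p = 0.145). Ccl19 has a near copy, Ccl19-ps2, named after its values were seen, with levels of 22.3 and 32.5 and a log2 difference of 0.54 (limma adjusted p = 0.0677), so that reads of Ccl19 may be split between them. Ccr7, at chr11:99144196-99155077 on the minus strand, ran from 61.1 to 136.1 (median 80.5) and from 78.4 to 134.4 (median 100.3). Its untreated range contained the whole combination range, with the upper end set by 1 tumor above the next at 90.2, and its log2 difference of 0.32 ± 0.16 did not pass (limma adjusted p = 0.107).

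Scavenging receptors remove chemokine without signaling as the classical receptors do. Ackr3, which takes up CXCL12, ran from 2700 to 3443 in untreated and from 1384 to 2434 in combination tumors without overlap. It fell by 0.87 ± 0.10 on the log2 scale (limma adjusted p = 2.05e-05) while its ligand rose. Ackr4, which takes up CCL19 and CCL21, had means of 14.2 and 24.7 and a log2 difference of 0.76 ± 0.43 that did not pass (limma adjusted p = 0.167).

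**Figure D2:**
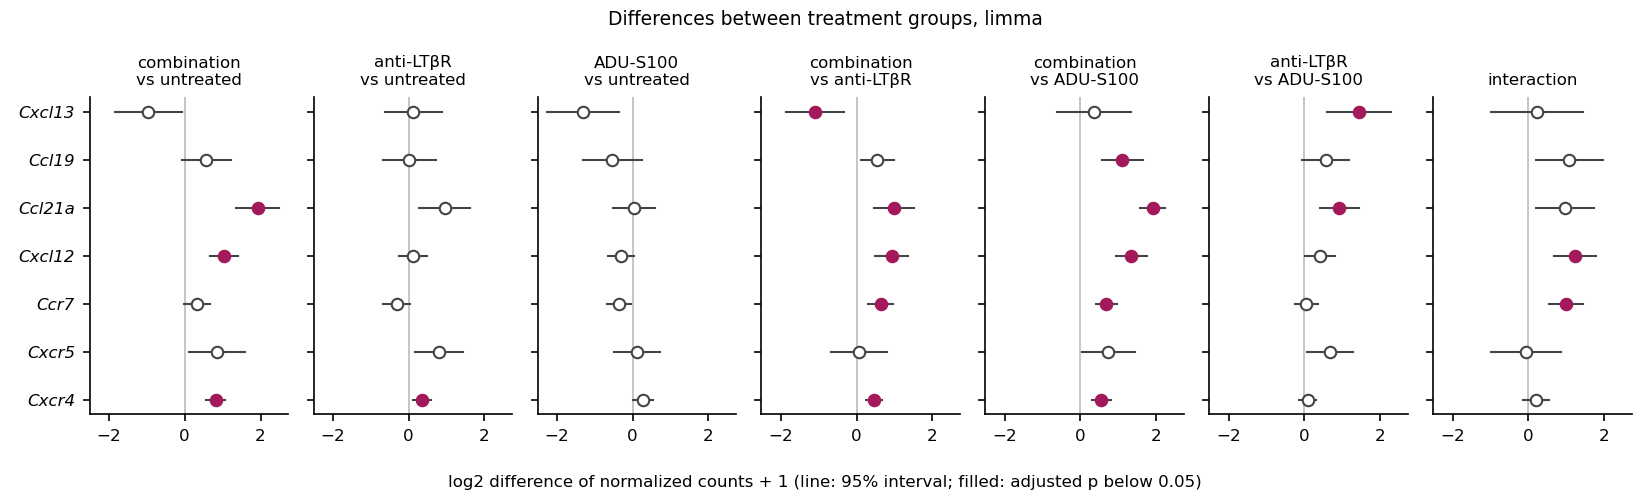
Log2 differences (x axis) of the 7 genes in each of the 6 comparisons of treatment groups and in the interaction of the agents; lines are 95% intervals and filled points have a limma adjusted p below 0.05. Ccl21a, Cxcl12 and Cxcr4 lie to the right of 0 in combination against untreated tumors, and no point is filled in ADU-S100 against untreated tumors.

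Anti-LTβR alone was compared with no treatment to ask what the antibody did without the STING agonist. Cxcr4 was the member that rose, from a median of 347.2 to 426.5, and its ranges of 264.5 to 481.7 and 404.4 to 559.1 overlapped. The log2 difference was 0.35 ± 0.11 (limma adjusted p = 0.0417). This was 1 of 7 members, where 15.3% of 16691 genes tested passed in either direction and 7.21% passed upward, so that this count is near the background. The Cxcr4 call was lost in 7 of 13 alternative fits, with adjusted p of up to 0.0972, while the log2 difference stayed between 0.33 and 0.36.

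Ccl21a ran from 400.7 to 1632 (median 709.7) in anti-LTβR tumors, and 4 of them exceeded every untreated tumor. Its log2 difference of 0.95 ± 0.32 missed the threshold (limma adjusted p = 0.0568) and passed when all 4 groups were fitted jointly (adjusted p = 0.0134) and in DESeq2 (adjusted p = 0.0458). Cxcr5 had a median of 16.2 against 7.27 and a log2 difference of 0.79 ± 0.30 (limma adjusted p = 0.0792). Its lowest anti-LTβR tumor, at 4.46, lay within the untreated range. Cxcl12 differed by 0.11 (95% interval -0.25 to 0.47), Cxcl13 by 0.13, Ccl19 by 0.02 and Ccr7 by -0.31 on the log2 scale, and none of these passed (limma adjusted p of 0.680, 0.824, 0.970 and 0.193). Ackr3 fell by 0.38 ± 0.07 (limma adjusted p = 0.00430).

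ADU-S100 alone was compared with no treatment to ask what a single intratumoral dose left behind after 14 days. No member passed, and no gene did: 0% of 16613 genes tested passed in limma, although 2408 had an unadjusted p below 0.05, and 1 gene passed in edgeR and 52 in DESeq2. Cxcl13 had the largest difference of the members. It ran from 2.19 to 24.4 (median 10.4) in ADU-S100 tumors, 5 of which lay below every untreated tumor, with a log2 difference of -1.32 (95% interval -2.27 to -0.36, limma adjusted p = 0.285). Ccr7 differed by -0.36 (limma adjusted p = 0.314), Ccl19 by -0.53, Cxcl12 by -0.31, Cxcr4 by 0.27 and Ccl21a by 0.03. Cxcr5 was below the filter on low values in this comparison and differed by 0.12 (exact two-sided permutation p = 0.660).

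Combination tumors were compared with each single-agent group to ask what the second agent added. Against anti-LTβR, Ccl21a (0.98, limma adjusted p = 0.00882), Cxcl12 (0.93, 0.00414), Ccr7 (0.64, 0.00707) and Cxcr4 (0.46, 0.00399) rose on the log2 scale and Cxcl13 fell by 1.09 (0.0351). These were 5 of 7 members, where 26.6% of 16932 genes tested did. Every anti-LTβR tumor was exceeded by 6 of the 8 combination tumors for Cxcl12 and for Cxcr4, by 4 for Ccr7 and by 2 for Ccl21a. Ccl19 (0.55, adjusted p = 0.0532) and Cxcr5 (0.06, 95% interval -0.68 to 0.80) did not pass. The Cxcl13 call was lost in 7 of 12 alternative fits, with adjusted p of up to 0.0815. Among them were edgeR with TMM scaling (adjusted p = 0.0598) and the joint fit (0.0579). With the 7 shallowest libraries of the 32 left out, Cxcl12 still passed and Ccl21a (0.82, adjusted p = 0.0815), Ccr7 (0.43, 0.109) and Cxcr4 (0.41, 0.0624) did not.

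Against ADU-S100, 5 of 7 members rose in combination tumors, where 20.2% of 16811 genes tested did. Ccl21a was 3.74-fold higher, with a 95% interval of 1.58 to 2.23 on the log2 scale (limma adjusted p = 2.96e-06), and the groups did not overlap, as for 5% of genes tested. Cxcl12 was higher by 1.34 ± 0.19 (limma adjusted p = 5.88e-05) and Ccl19 by 1.11 ± 0.26 (0.00222). For each of these 2 genes, 7 of the 8 combination tumors exceeded every ADU-S100 tumor. These 3 chemokines were also at least 2-fold higher, as were 5.46% of genes tested. The receptors Ccr7 (0.68, adjusted p = 0.000663) and Cxcr4 (0.55, 0.00114) rose by less than 2-fold. Cxcr5 (0.73, adjusted p = 0.0825) did not pass in limma and passed in edgeR and DESeq2, and Cxcl13 differed by 0.35 (adjusted p = 0.563). Ccl19-ps2 rose with Ccl19, by 1.40 (limma adjusted p = 0.00626).

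Between the single agents, Cxcl13 (1.44 ± 0.40, limma adjusted p = 0.0417) and Ccl21a (0.92 ± 0.24, 0.0342) were higher with anti-LTβR than with ADU-S100. This was 2 of 7 members, where 3.38% of 16649 genes tested passed upward. Every ADU-S100 tumor was exceeded by 5 anti-LTβR tumors for Cxcl13 and by 4 for Ccl21a. In the joint fit neither call held. Over all alternative fits the Cxcl13 call was lost in 5 of 12 (adjusted p of up to 0.0919) and the Ccl21a call in 2 of 13 (up to 0.0672).

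The interaction, fitted on all 32 tumors, asked whether the difference made by ADU-S100 was another one with anti-LTβR than without it. Cxcl12 (1.23 ± 0.27, limma adjusted p = 0.00249) and Ccr7 (0.99 ± 0.22, 0.00231) passed, 2 of 7 members where 18.4% of 17649 genes tested did. Both had lower medians in ADU-S100 tumors than in untreated tumors, 1110 against 1530 for Cxcl12 and 61.5 against 80.5 for Ccr7. Both had higher medians in combination than in anti-LTβR tumors, 2925 against 1651 for Cxcl12 and 100.3 against 63.8 for Ccr7. With the 7 shallowest libraries left out, the interaction of Ccr7 was 0.75 and no longer passed (adjusted p = 0.0546). Ccl21a (0.96, adjusted p = 0.0716) and Ccl19 (1.08, 0.0757) had interactions of similar size with wider errors and did not pass. Those of Cxcr4 (0.20 ± 0.17), Cxcl13 (0.22 ± 0.60) and Cxcr5 (-0.06 ± 0.45) were smaller and did not pass either. The comparisons share groups of tumors and are not independent of each other.

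The Ccl21 copies were next summed, since reads that fit several copies can be counted to any of them. Untreated tumors had a sum of 583.8 ± 284 and ADU-S100 tumors one of 546.6 ± 121 (SD, n = 8). The sum reached 1110 ± 522 with anti-LTβR and 1999 ± 446 with the combination. Ccl21a held 73.8%, 72.3%, 72.3% and 74.4% of it in the order given. The sum was higher in all 8 combination tumors than in any untreated tumor, by 1.92 on the log2 scale (exact two-sided permutation p = 0.000155, the smallest that 8 against 8 can give, adjusted over 6 comparisons 0.000466). It was also higher in anti-LTβR than in untreated tumors, by 0.97 (exact permutation p = 0.0176, adjusted 0.0211). Ccl21a alone differed by 0.95 there, with an unadjusted limma p of 0.00957. Its missed threshold followed adjustment over 16691 genes, where the sum was adjusted over 6 comparisons, so the calls cannot be set against each other. ADU-S100 and untreated tumors differed by 0.06 (exact permutation p = 0.855).

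The rows of the copies did not all move alike. Ccl21b and Gm10591 had identical values in all 32 libraries. Ccl21b had a log2 difference of 1.94 in combination (limma adjusted p = 0.000442) and of 1.28 in anti-LTβR tumors (0.0322) against untreated tumors. Ccl21d followed with 1.94 and 1.29. Gm13304, whose coding sequence is the same as theirs, rose by 1.60 in combination tumors (limma adjusted p = 0.00129) and differed by -0.22 in anti-LTβR tumors, where it held 2.90% of the sum against 6.36% in untreated tumors. Values of single copies are therefore uncertain.

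**Figure D3:**
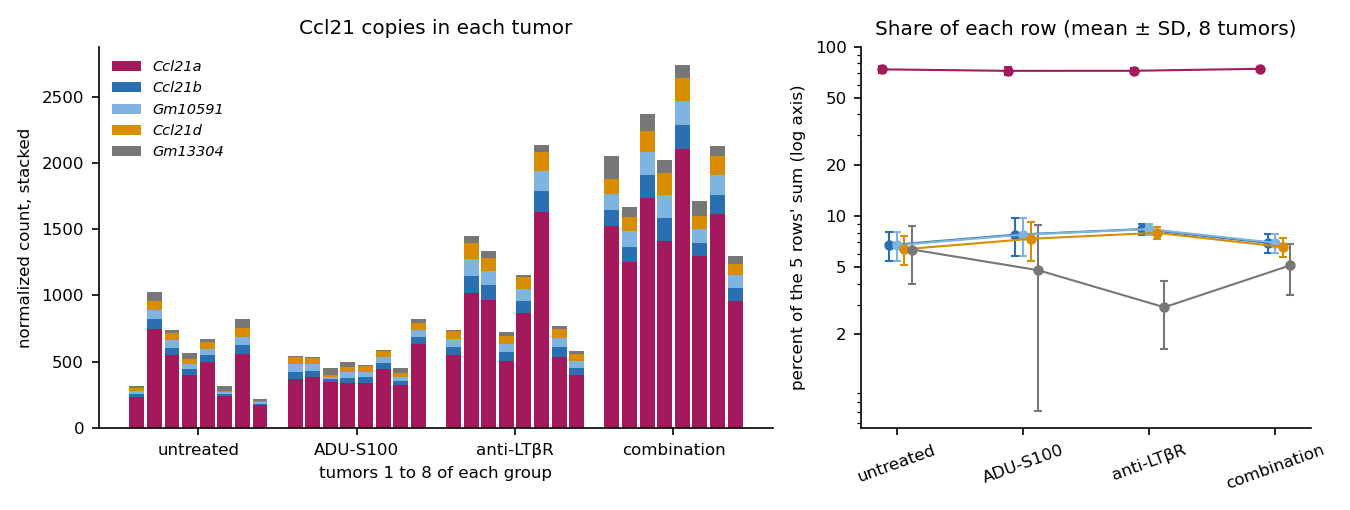
Left, normalized read counts (y axis) of the 5 Ccl21 copies stacked per tumor, ordered by treatment group; right, the share of the sum held by each copy per group (log axis, percent, mean ± SD of 8 tumors). The stacks of all 8 combination tumors exceed those of all untreated tumors, and Ccl21a makes up 72.3 to 74.4% of the sum in each group.

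The other genes of the lymphotoxin and noncanonical NF-κB pathway were examined as a list. In combination against untreated tumors, 6 of 14 rose and none fell, with a median log2 difference of 0.18 beside -0.02 over all genes tested, of which 19.6% rose and 43.2% passed in either direction. The ligand genes that rose were Tnf (1.29, limma adjusted p = 0.000214), Lta (1.21, 0.0177), Ltb (0.90, 0.00148) and Tnfsf11, which encodes RANKL (0.73, 0.0019), and they rose together with the RANK receptor gene Tnfrsf11a (0.62) and the adaptor gene Traf3 (0.26). Tnfsf14, which encodes the LTβR ligand LIGHT (0.30, limma adjusted p = 0.142), the receptor gene Ltbr itself (-0.15), Relb (0.10), Nfkb2 (0.02) and the kinase gene Map3k14, which encodes NIK (-0.05), did not pass. With anti-LTβR alone 1 of 13 rose, near the 7.21% of all genes tested, and Lta was below the filter.

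Genes of high endothelial venules and lymphocyte homing were examined as a further list, and most of those that rose were adhesion genes. Beside the same 19.6% of all genes, 6 of 9 tested genes rose in combination tumors and none fell, with a median of 0.71. Vcam1 (1.16, limma adjusted p = 3.97e-05) and Icam1 (1.15, 5.52e-05) encode adhesion ligands of the lymphocyte integrins, whose subunit genes Itgal (0.82) and Itga4 (0.71) rose as well. Enpp2, which encodes autotaxin of high endothelial venules, rose by 1.10 (limma adjusted p = 0.000764). With anti-LTβR alone, where 7.21% of all genes tested rose, 5 of 9 did, among them Vcam1 (1.03, limma adjusted p = 0.000893) and Enpp2 (0.97, 0.00424). Of the other venule genes, Fut7 did not pass with the combination (0.41, limma adjusted p = 0.0937) or with anti-LTβR alone (0.42, 0.216). Glycam1, Madcam1 and Chst4 were below the filter. Mean Glycam1 was 9.80 in combination tumors against 2.01 without treatment, where 2 tumors were at 0.

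Lymphocyte survival and egress genes and other chemokines moved in both directions. In combination tumors, where 19.6% of all genes tested rose and 43.2% passed in either direction, 7 of 11 survival and egress genes rose, among them Il7r (1.06, limma adjusted p = 1.35e-05), Gpr183, an oxysterol receptor that positions B cells (0.97, 0.000506), and Tnfsf13b, which encodes the B cell survival factor BAFF (0.74, 0.000973). The egress genes Spns2 and Sphk1 fell by 0.68 and 0.47 on the log2 scale, and the egress receptor gene S1pr1 rose by 0.83. Of 17 other chemokines and receptors 9 rose and 3 fell. Ccl5 (1.80, limma adjusted p = 0.000510) and Cxcl9 (0.91), which attract T cells, and Cxcr3 (1.26) and Cxcr6 (1.07), receptors of T cells, rose, and Ccl20 fell by 2.01 (0.00433).

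Markers of the cells that make or follow these chemokines moved in the same comparison, in which 19.6% of all genes tested rose and 43.2% passed in either direction. All 6 markers of lymphatic endothelium, including Prox1 (2.23) and Flt4 (2.07), rose in combination tumors with a median log2 difference of 1.86, and their summed level ran from 713.7 to 1378 in untreated and from 1836 to 3636 in combination tumors. All 7 fibroblast markers rose, with a median of 1.54 and summed levels of 91679 to 143722 and of 161323 to 590991. B cell markers rose in 6 of 7 cases (median 1.37, sums of 138.9 to 419.2 and of 363.1 to 1104), and T cell markers in 8 of 8 (median 0.86, sums of 843.5 to 1969 and of 1612 to 2963). Of the mature dendritic cell markers, whose cells also carry CCR7, Cd40 alone rose among 5 tested (0.80, median of the list 0.13), and 4 of 6 macrophage markers rose (median 0.35). Blood endothelium rose in 6 of 6, tumor epithelium fell in 3 of 5, and the markers of skin, muscle and fat did not pass. Of the follicular dendritic cell markers, Cr2 and Fcer2a were below the filter with untreated means of 2.62 and 3.69, and Clu and Mfge8 did not pass. Their part in the chemokine levels was not tested. With anti-LTβR alone 4 of 6 lymphatic markers rose (median 0.94) beside 7.21% of all genes tested, and 0 of 7 fibroblast markers passed beside 15.3% in either direction. In the same comparison T cell markers rose in 4 of 8 cases (median 0.44) and B cell markers in 2 of 7. Blood endothelium rose in 3 of 6 and macrophage markers in 2 of 6, and tumor epithelium fell in 3 of 5.

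Each member, and the sum of the Ccl21 copies, was then set beside markers of the cells known to make or carry it. Levels relative to the mean log2 level of these markers gave 24 comparisons with untreated tumors. Ccl21a relative to lymphatic endothelium differed by 0.21 in combination tumors, where Ccl21a itself had differed by 1.93 (exact two-sided permutation p = 0.116, adjusted over 24 comparisons 0.348). Cxcl12 relative to fibroblasts differed by -0.30 (exact permutation p = 0.0606, adjusted 0.291) and Cxcr4 relative to T cells by -0.04 (exact permutation p = 0.803). For these 3 genes the difference beside the markers did not pass in this test, which is not the limma test that they had passed on their own. With each lymphatic marker left out in turn, the Ccl21a difference ran from 0.04 to 0.32. Whether the number of these cells accounts for the levels was not tested.

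Ccr7 and Cxcl13 were lower beside their markers. Ccr7 relative to T cells was lower in anti-LTβR tumors by 0.84 (exact permutation p = 0.00109, adjusted 0.0261). It differed by -0.53 in combination tumors and by -0.41 in ADU-S100 tumors (exact permutation p of 0.0106 and 0.0110, both 0.0662 adjusted). With each T cell marker left out in turn the anti-LTβR difference ran from -0.86 to -0.80. Among markers of naive and central memory T cells, the T cells known to carry CCR7, Il7r rose, Klf2 fell by 0.33, and Lef1 and Tcf7 did not pass in combination tumors. Cxcl13 relative to fibroblasts was lower in combination tumors by 2.30 (exact permutation p = 0.00233, adjusted 0.0280). Both calls were lost with the 7 shallowest libraries left out (adjusted p = 0.161 for each). Cxcr5 relative to B cells differed by -0.35 in combination tumors (exact permutation p = 0.353).

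**Figure D4:**
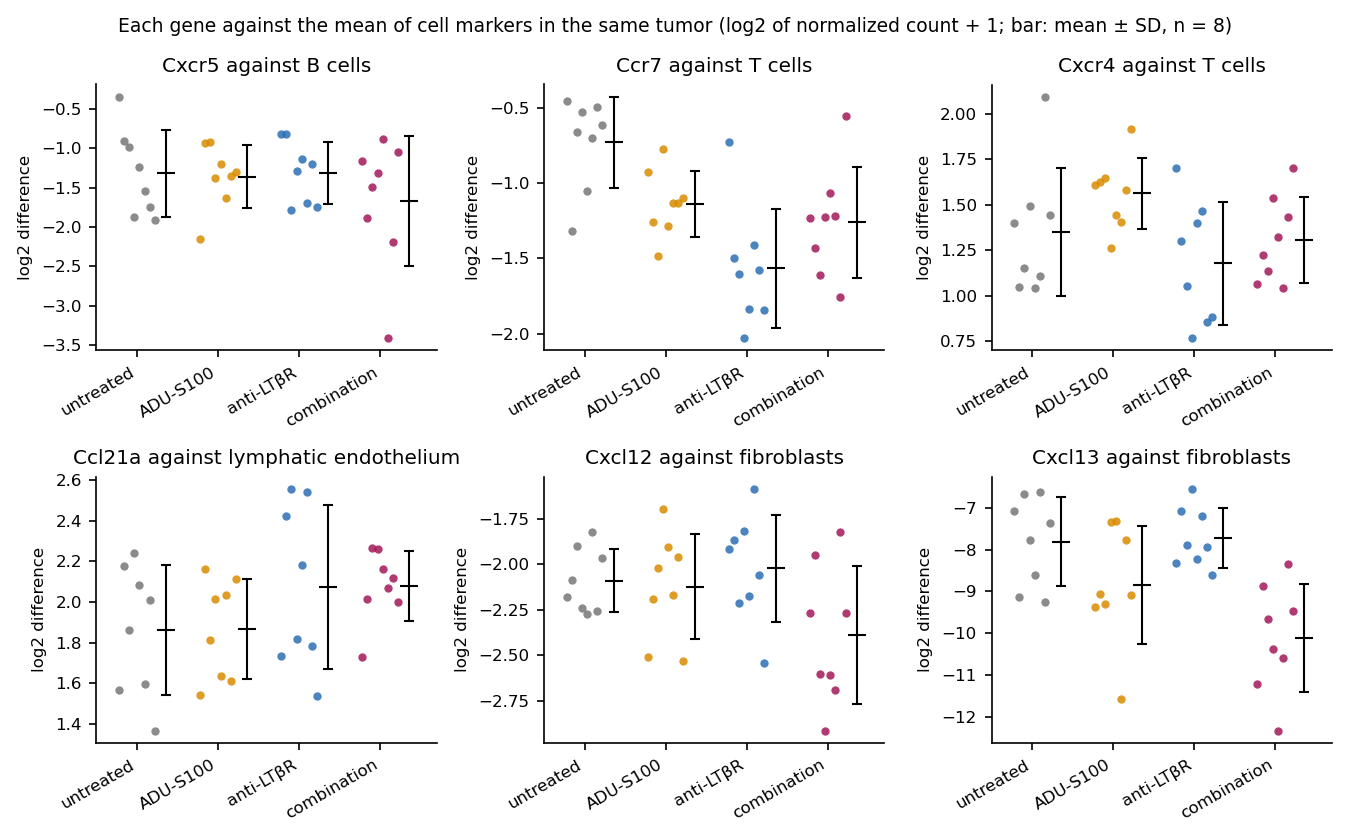
Log2 level of 6 members minus the mean log2 level of the markers of the cells known to make or carry them (y axes), per tumor and treatment group, with bars for mean ± SD of 8 tumors. Ccl21a relative to lymphatic markers overlaps between untreated and combination tumors, and Cxcl13 relative to fibroblast markers is on average 2.30 lower in combination than in untreated tumors, with some overlap.

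To describe which genes varied most like each member, levels were centred on their treatment group and correlated over all 32 tumors with 17649 genes, as a description in which all values come from the same libraries. Ccl21a followed Flt4 (r = 0.85) and Mmrn1 (0.84) most closely, and Reln (0.76) and Prox1 (0.75) were also among its 5 nearest genes, 4 markers of the lymphatic list. Cxcl12 followed Rnf144a (0.88), Cyp1b1 (0.88) and Adcyap1r1 (0.85), with Bgn, which encodes a matrix proteoglycan, at 0.80. Cxcr5 was nearest to Ighd (0.72), which encodes the IgD heavy chain of naive B cells, and Spib and Bank1 (both 0.65), also genes of B cells, were among its 5 nearest. Ccl19 was nearest to Il33 (0.73), a cytokine gene of stromal and endothelial cells, and Cxcl13 to Cacna1h and Ifi27l2a (both 0.74). Ccr7 had its highest value with Adora2a (0.68). Cxcr4 was nearest to Il16 (0.71), and Csf1r of the macrophage list and Cd83 of the mature dendritic cell list (both 0.67) were among its 5 nearest, although it was set beside T cell markers alone. No ligand was among the 5 nearest genes of its own receptor.

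**Figure D5:**
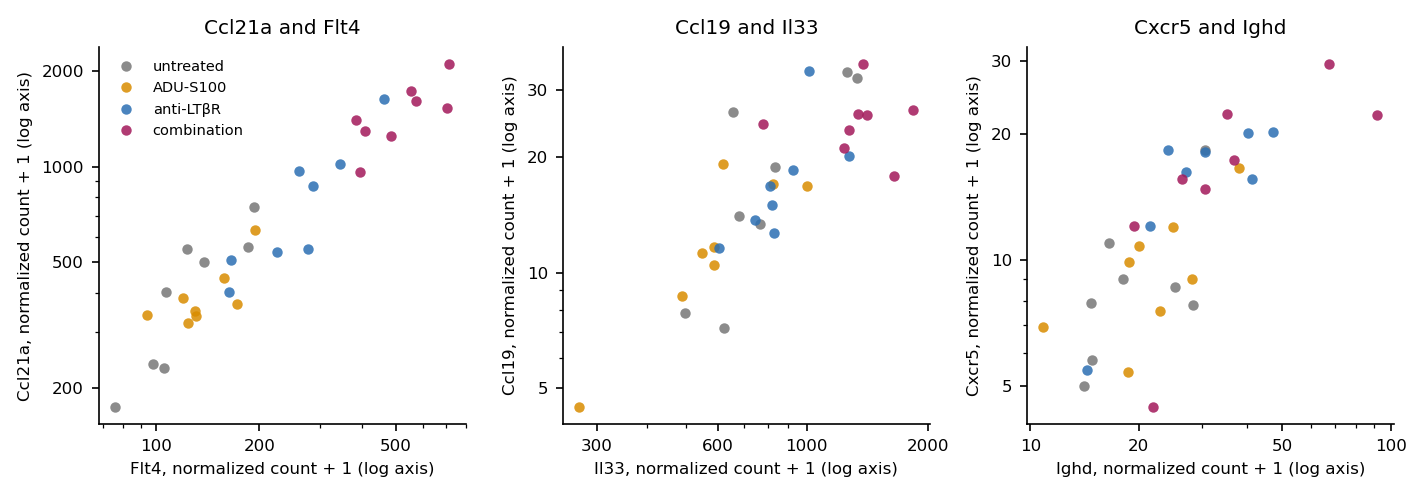
Normalized read counts plus 1 (log axes) of Ccl21a against Flt4, Ccl19 against Il33 and Cxcr5 against Ighd in 32 tumors, with color giving the treatment group. Ccl21a rises along with Flt4 from the untreated to the combination tumors (r = 0.95 over all tumors, 0.85 when group-centred). The points of Cxcr5 and Ighd scatter more (r = 0.79 over all tumors, 0.72 when group-centred).

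Finally, 5 pairs of members, all ligands with their receptors except the pair of Ccl19 and Ccl21a, were compared across the tumors of each of the 4 groups. Of these 20 relations 14 had a positive Pearson r and none had an exact permutation p below 0.05. Cxcl12 and Cxcr4 in anti-LTβR tumors had the highest value (n = 8, r = 0.70, exact permutation p = 0.0594, adjusted over 20 relations 0.463), with Spearman rho = 0.69 (exact permutation p = 0.0694). Without the 2 tumors farthest from the median of Cxcl12, r was 0.55. Ccl19 and Ccl21a, both ligands of CCR7, had r = 0.69 in combination tumors (n = 8, exact permutation p = 0.0584, adjusted 0.463), which was 0.34 without the 2 farthest tumors.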

How the data were processed

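The authors extracted total RNA, made stranded polyadenylated libraries and, per the labels, trimmed reads with cutadapt 1.9. The submitters' processing notes name HISAT2, StringTie, STAR, Partek, DESeq2, edgeR and build mm39, and which of them made each table is not given in the sources used here. The deposited table of 32 libraries holds a signal per gene, estimated reads divided by 1 factor per library. The deposited table of all 52 libraries holds another such signal, from which whole reads were recovered (100% of values within 0.02 of a read). A deposited enrichment table holds the authors' own comparisons and was not used. The 7 genes and all lists were chosen with earlier results of these data known. Genes named otherwise follow a rule on lists and on closeness of pattern.

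Tests used limma 3.58.1 (R 4.3.3) on log2(value + 1) after the edgeR 4.0.16 filter filterByExpr with a count minimum of 10, fitted across all genes on the 16 libraries of each comparison and on 32 for the interaction, with Benjamini-Hochberg adjustment. Summed copies and marker ratios were tested by exact two-sided permutation over tumors. edgeR and DESeq2 1.42.0 on recovered reads, other scalings, pseudocounts, filters, depth and the replicate number as a block were alternatives. The fits were tested on simulated data. Replicates are separate tumors. Libraries of a group differed beyond sampling noise. In the second experiment, 15 libraries whose labels contradict each other were left out of all groups. Positions are GRCm38. Coordinates in the table of 32 libraries differ from it and were not used, and the table of 52 gives none. Among the members, Cxcl13, Ccl19 and Cxcr5 had the lowest counts and wide relative spreads (39.9 to 66.5% of the mean for Cxcl13). A gene of a marker list and an allele of the tumor line are not reported here.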

Additional observations from a re-analysis of the deposited data

Results flagged for a closer look

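Several single tumors lay far from the rest of their group. In untreated tumors this held for the highest Ccr7 (136.1) and the highest Cxcr5 (17.3), both in tumor 3. In ADU-S100 tumors it held for the highest Ccl21a (630.7) and the highest sum of Ccl21 copies (824.2), both in tumor 8, for the highest Cxcl12 (2181, tumor 6) and for the highest Ccr7 (92.5, tumor 4). In anti-LTβR tumors the highest Ccl19 (32.6, tumor 3) stood apart, and in the second experiment's combination libraries the highest Ccl21a (23246, library 3). Dixon's criterion picked these 8 among 39 groups of values, and chance alone picks about 1 in 20.

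The difference made by ADU-S100 was another one with anti-LTβR than without it for Cxcl12 (interaction 1.23 on the log2 scale, limma adjusted p = 0.00249) and for Ccr7 (0.99, limma adjusted p = 0.00231). All 8 tumors of each group entered these fits.

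The second experiment, which enters no comparison, held levels of every member above the highest untreated tumor of the first. Its highest libraries had 225.2 for Cxcl13, 457.1 for Ccl19, 23246 for Ccl21a, 5739 for Cxcl12, 525.1 for Ccr7, 125.7 for Cxcr5 and 921.8 for Cxcr4. Of the 20 libraries, 9, 10, 12, 10, 13, 9 and 9 exceeded that tumor for these genes in turn. The highest Ccl19, Ccl21a and Ccr7 came from 1 library of 8716257 reads that the authors scaled by 3.78 normalized counts per read, against 0.779 to 1.38 in the other 19. On the CPM scale, from recovered reads and library totals alone, Ccl21a still peaked in that library (706.0), and Ccl19 (14.9) and Ccr7 (21.1) peaked in others. These levels come from the table that holds both experiments, which were not tested against each other.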

How the results depend on the processing

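Over 602 alternative values of the 7 genes' differences, 538 kept their direction and their side of the threshold, 22 came to pass, 25 ceased to pass and 17 changed direction, all 17 of differences that did not pass. In combination against untreated tumors Cxcr5 came to pass with edgeR on recovered reads (1.00 with TMM, 1.00 with RLE, 1.02 with library totals), DESeq2 (1.01), a pseudocount of 10 (0.50), the joint fit (0.85), the fit without the 7 shallowest libraries (1.11) and the muscle covariate, chosen after seeing the data (0.96). Counts of genes past both thresholds moved most with the fold requirement: without it they were 7305, 2555, 4504, 7759 and 1069 for combination and anti-LTβR against untreated, combination against anti-LTβR and ADU-S100, and anti-LTβR against ADU-S100. In the first of these they were 1034 as reported, 1671 in DESeq2, 640 with a pseudocount of 10, 1638 without a filter and 649 with at least 10 in every library. In the second they were 173 as reported, 361, 107, 330 and 96 in that order, and 87 with the muscle covariate. In the third they were 654 in DESeq2, 196 with a pseudocount of 10 and 171 without the shallowest libraries. In the fourth they were 1038 as reported, 1697, 659, 1590 and 627 in the former order. In the fifth they were 211 in DESeq2 and 60 with at least 10 in every library. ADU-S100 against untreated had 0 genes as reported, 1 in each edgeR fit, the joint fit, the muscle fit and the replicate block, 6 without the shallowest libraries and 24 in DESeq2. The interaction, counted by adjusted p alone, had 3240 as reported and 1568 without the shallowest libraries. Directions changed for Ccl19 in anti-LTβR against untreated (-0.12, -0.12, -0.11 and -0.13 with TMM, RLE, totals and DESeq2, -0.021 with a pseudocount of 10) and for Ccl21a in ADU-S100 against untreated (-0.10 in each of these 4, -0.090 without the shallowest libraries, -0.21 with the muscle covariate). They also changed for the interaction of Cxcr5 (0.052, 0.059, 0.051 and 0.053, and 0.0024 with a pseudocount of 10) and, without the shallowest libraries, for the interaction of Cxcl13 (-0.16) and, in ADU-S100 tumors, summed Ccl21 copies (-0.071), Cxcr5 relative to B cells (0.11), Ccl21a relative to lymphatic endothelium (-0.0072) and Ccl19 and Cxcl12 relative to fibroblasts (0.046 and 0.077). Ccl19 relative to fibroblasts in anti-LTβR tumors was then 0.24, and Cxcr5 relative to B cells there was -0.13 with a pseudocount of 10. The causes were not tested. Replicate numbers did not pair the tumors, with mean correlations of same-numbered deviations from -0.09 to 0.19, and between 0 and 3 of 8 tumors nearest to their own number. With the replicate block Cxcr4 in anti-LTβR against untreated tumors had an adjusted p of 0.0828. With at least 10 in every library Cxcl13, Ccl19 and Cxcr5 could not be fitted in most comparisons.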

Other observations

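A second experiment with the same tumor line held 20 libraries of 8716257 to 18821792 reads, 15 of which carry labels that contradict each other on the treatment. The 5 labelled as combination in all fields had the following levels. Ccl21a ran from 1956 to 23246 (median 3722), Ccl19 from 93.0 to 457.1 (median 132.1), Cxcl13 from 49.8 to 180.4 (median 85.2) and Cxcl12 from 906.6 to 5040 (median 3887). For the receptors, Ccr7 ran from 114.8 to 525.1 (median 301.3), Cxcr5 from 15.6 to 98.2 (median 49.0) and Cxcr4 from 22.7 to 837.1 (median 483.6). Library 3 had the highest Ccl19, Ccl21a, Ccr7 and Cxcr5 of these 5 together with the lowest Cxcl12 and Cxcr4. It is the shallowest library, with 8716257 reads, and was scaled by the authors to 3.78 normalized counts per read. On the CPM scale, from recovered reads and library totals alone, it kept the highest Ccl21a (706.0 against 108.5 to 262.1) and the lowest Cxcl12 (27.5) and Cxcr4 (0.688), while library 4 had the highest Ccl19 (14.9 against 13.9 in library 3) and library 2 the highest Ccr7 (21.1 against 15.9) and Cxcr5 (5.33 against 2.98). Over the 15 libraries without a group, the lowest, median and highest levels were 134.1, 650.6 and 9580 for Ccl21a, 10.9, 24.3 and 164.3 for Ccl19, and 7.26, 25.5 and 225.2 for Cxcl13. The library with the highest Ccl21a of these 15 also had their highest Cxcr5 and their lowest Cxcr4 (136.8), both also in CPM.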
